A study of Homo sapiens with 12 samples.

Results

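The genes of 6 transcriptional regulators, TOX3, IRX2, ARID5B, CREB3L1, TSC22D3 and AFF3, were followed across RNAseq libraries from SKBR-3 cells. They were chosen by their response: lapatinib raised them with a non-targeting siRNA and FOXA1 siRNA lowered them. All 6 were found by symbol among the 20531 genes listed. The comparisons that selected them, lapatinib against DMSO with NT siRNA and FOXA1 siRNA against NT siRNA in either medium, are therefore given as a description. The open question was whether the effects of drug and siRNA combined additively or non-additively.

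SKBR-3 is an established HER2+ breast carcinoma cell line that lacks the estrogen receptor. Cells were transfected with a pool of non-targeting (NT) control siRNA or of FOXA1 siRNA. They were then kept for 24 h in vehicle (DMSO) or in lapatinib at 300 nM, giving 4 groups with 3 replicates each. The labels give 48 h of siRNA before the drug, while the methods give a shorter interval. All groups are this single line, and pooled siRNA lowers a transcript without removing the gene.

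Lapatinib inhibits the kinases of EGFR and HER2. FOXA1 is a forkhead pioneer factor that binds enhancers in closed chromatin and sustains luminal gene expression in breast cells. The 6 genes act at different steps of transcription. TOX3 is an HMG-box nuclear protein at a breast cancer risk locus, IRX2 is an Iroquois homeodomain factor, and ARID5B carries an AT-rich interaction domain and works with the histone demethylase PHF2. CREB3L1 is a bZIP factor held in the endoplasmic reticulum membrane until the Golgi proteases encoded by MBTPS1 and MBTPS2 release it. TSC22D3, also known as GILZ, is a leucine zipper protein that acts largely by binding other factors and is induced by glucocorticoids and FOXO factors. AFF3 belongs to the AF4/FMR2 family of elongation proteins. TSC22D3 and AFF3 are thus regulators of transcription rather than classical sequence-specific factors.

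Libraries held 25749578 to 32271850 expected counts (median 30542429). Normalized counts below are counts scaled to a common library size, and TPM values are scaled by transcript length as well. The luminal and HER2 markers were strong, with ERBB2 at 2718 to 6105 TPM and KRT19 at 3755 to 5329 TPM, whereas ESR1 reached 0.98 TPM and PGR 0.01 TPM. The 12 basal, stromal, blood and endothelial markers summed to 21.0 to 31.5 TPM in NT siRNA with DMSO, 32.5 to 42.9 in NT siRNA with lapatinib, 28.2 to 36.1 in FOXA1 siRNA with DMSO and 36.9 to 48.1 in FOXA1 siRNA with lapatinib. CD68 supplied 14.8 to 42.5 TPM of that sum, while VIM stayed at or below 0.21 and PTPRC at or below 0.32. The basal keratin KRT5 moved with the siRNA, from 0.03 to 0.32 TPM with NT siRNA to 0.76 to 1.52 TPM with FOXA1 siRNA, and its part in the results below was not tested. In bulk RNA, fewer cells with a transcript and less of it per cell cannot be told apart.

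FOXA1 itself was low in every FOXA1 siRNA library. Normalized counts were 8446, 8308 and 8767 in NT siRNA with DMSO and 1160, 1362 and 1564 in FOXA1 siRNA with DMSO. With lapatinib they were 12672, 12168 and 13177 with NT siRNA and 1642, 1889 and 2384 with FOXA1 siRNA. FOXA1 fell to 0.162 of control in DMSO and to 0.155 in lapatinib, and the drug raised what remained by 0.54 on the log2 scale (SE 0.15, adjusted p = 0.0129 by the quasi-likelihood test of edgeR, adjusted by Benjamini-Hochberg).

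Start-site windows were examined because the genes had been chosen as lowered by depletion of a forkhead factor. RefSeq (GRCh38.p14) supplied 10 windows for 5 of the genes, each with 250 bases before and 50 after an annotated start. No window was analysed here for TOX3 (chromosome 16, 52436416 to 52547802, minus strand). Both strands were searched for the forkhead heptamers GTAAACA and GTCAACA and also GCAAACA. Of the 10 windows 2 held a match, against 9.24% of 35116 windows genome-wide. Both matches were to GTAAACA, which 3.42% of all windows hold, and read TGTTTAC on the gene's strand. They are shown in capitals below, with the IRX2 window for contrast. A match is a description of letters and not a measured binding site.
ARID5B, window 2 of 2, chr10:62049107-62049406, plus strand: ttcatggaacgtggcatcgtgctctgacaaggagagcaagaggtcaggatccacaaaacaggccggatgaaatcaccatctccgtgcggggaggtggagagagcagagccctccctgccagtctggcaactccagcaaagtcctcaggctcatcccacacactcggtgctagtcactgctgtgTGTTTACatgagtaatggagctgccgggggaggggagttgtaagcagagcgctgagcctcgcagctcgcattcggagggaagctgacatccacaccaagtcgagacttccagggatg
TSC22D3, window 3 of 4, chrX:107717013-107717312, minus strand: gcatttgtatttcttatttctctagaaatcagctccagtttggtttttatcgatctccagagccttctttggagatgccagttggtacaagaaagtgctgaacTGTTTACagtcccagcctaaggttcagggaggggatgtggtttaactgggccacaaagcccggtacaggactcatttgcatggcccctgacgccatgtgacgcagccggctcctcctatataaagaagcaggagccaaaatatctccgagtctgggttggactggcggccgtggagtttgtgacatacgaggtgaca
IRX2, chr5:2751628-2751927, minus strand: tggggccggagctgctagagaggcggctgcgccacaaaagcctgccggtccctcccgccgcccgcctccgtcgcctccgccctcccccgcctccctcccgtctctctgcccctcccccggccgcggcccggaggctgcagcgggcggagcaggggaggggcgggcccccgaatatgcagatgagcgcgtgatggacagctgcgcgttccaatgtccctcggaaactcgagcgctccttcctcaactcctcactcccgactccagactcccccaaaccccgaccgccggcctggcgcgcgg

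The ARID5B match began 67 bases before an internal start of the gene, and the TSC22D3 match 147 bases before the start of a shorter transcript. The IRX2 window had no match, 73.3% G and C against a median of 58.7% over all windows, and 34 CpG dinucleotides against a median of 14. The windows of CREB3L1 and AFF3 and the other windows of ARID5B and TSC22D3 held none of the 3 heptamers. The only CREB3L1 window (chromosome 11, 46294909 to 46295208, plus strand) lies inside the gene. The start of the whole gene, at 46277662, was not searched.

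All 6 genes were higher in every NT siRNA lapatinib library than in every NT siRNA DMSO library, which the choice of genes fixes. Over all genes tested in that comparison, 6.64% were called up and 7.13% down (adjusted p under 0.05, with a log2 fold change of 1 or more in either direction). The corresponding shares for FOXA1 siRNA were 2.77% down and 4.06% up in DMSO and 3.90% down and 4.51% up in lapatinib. TSC22D3, with a log2 fold change of 1.07, lay closest to the fold threshold in lapatinib.

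TOX3 was low in DMSO and rose and fell in nearly equal folds. Normalized counts were 148, 164 and 180 in NT siRNA with DMSO and 447, 563 and 598 in NT siRNA with lapatinib. After FOXA1 depletion TOX3 stood at 53.0, 47.5 and 66.6 in DMSO and 166, 138 and 228 in lapatinib. The combined treatment overlapped untreated control, and the other groups were separate. Lapatinib changed TOX3 by 1.73 (SE 0.13) on the log2 scale with NT siRNA, and FOXA1 siRNA changed it by -1.54 (SE 0.17) in DMSO and -1.60 (SE 0.19) in lapatinib.

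IRX2 was abundant and lost little to FOXA1 siRNA in DMSO but much in lapatinib. Its normalized counts were 1994, 2126 and 2063 in NT siRNA with DMSO and 5092, 5265 and 5650 in NT siRNA with lapatinib. They were 1506, 1461 and 1473 in FOXA1 siRNA with DMSO and 2234, 2178 and 2621 in FOXA1 siRNA with lapatinib. No groups overlapped, and the lapatinib libraries with FOXA1 siRNA sat just above untreated control. FOXA1 siRNA changed IRX2 by -0.46 (SE 0.05) in DMSO and by -1.19 (SE 0.08) in lapatinib, and the drug by 1.39 (SE 0.06) with NT siRNA.

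ARID5B had the same shape at a similar count. Normalized counts were 1711, 1449 and 1580 in NT siRNA with DMSO and 4193, 3594 and 3915 in NT siRNA with lapatinib. FOXA1 depletion left 1204, 879 and 1038 in DMSO and 1833, 1403 and 1495 in lapatinib. The combined treatment overlapped untreated control, as for TOX3. The FOXA1 siRNA effect was -0.59 (SE 0.11) in DMSO and -1.31 (SE 0.10) in lapatinib, and the lapatinib effect with NT siRNA was 1.33 (SE 0.08).

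CREB3L1 varied widely between the replicates in DMSO. In NT siRNA with DMSO its normalized counts were 178, 393 and 271, and in NT siRNA with lapatinib 1222, 1155 and 1683. In FOXA1 siRNA with DMSO they were 92.9, 152 and 102, and with lapatinib 535, 613 and 649. Every library with the combined treatment was above every untreated control. Lapatinib changed CREB3L1 by 2.29 (SE 0.26) with NT siRNA, and FOXA1 siRNA changed it by -1.27 (SE 0.31) in DMSO and -1.18 (SE 0.15) in lapatinib.

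TSC22D3 was expressed above the other 5 genes per transcript length in each group. Normalized counts were 3691, 3399 and 3841 in NT siRNA with DMSO and 7747, 6582 and 8219 in NT siRNA with lapatinib. They were 1606, 1518 and 1641 in FOXA1 siRNA with DMSO and 2738, 2631 and 3256 in FOXA1 siRNA with lapatinib. Here the combined treatment stayed below every untreated control. FOXA1 siRNA changed TSC22D3 by -1.18 (SE 0.06) in DMSO and -1.39 (SE 0.11) in lapatinib, and the lapatinib effect with NT siRNA was 1.07 (SE 0.09).

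AFF3 was near the limit of detection. Its counts were 4, 1 and 2 in NT siRNA with DMSO, 13, 16 and 14 in NT siRNA with lapatinib, 1, 0 and 2 in FOXA1 siRNA with DMSO, and 3, 0 and 3 in FOXA1 siRNA with lapatinib. It passed the filter of 10 counts in a sample only through NT siRNA with lapatinib, the group in which it was chosen to be high. The 43 counts of that group against 7 in NT siRNA with DMSO gave a ratio of 6.68, with an exact 95% counting interval of 2.98 to 17.6. Against the 6 counts in FOXA1 siRNA with lapatinib the ratio was 7.58 (3.21 to 21.8). With FOXA1 siRNA, 6 counts in lapatinib against 3 in DMSO gave 2.09 (0.447 to 12.9), so a response after FOXA1 depletion was not detectable at this depth. These intervals cover counting error only. They do not allow for the choice of AFF3 as high in NT siRNA with lapatinib, which favours large ratios in the comparisons giving 6.68 and 7.58.

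**Figure D1:**
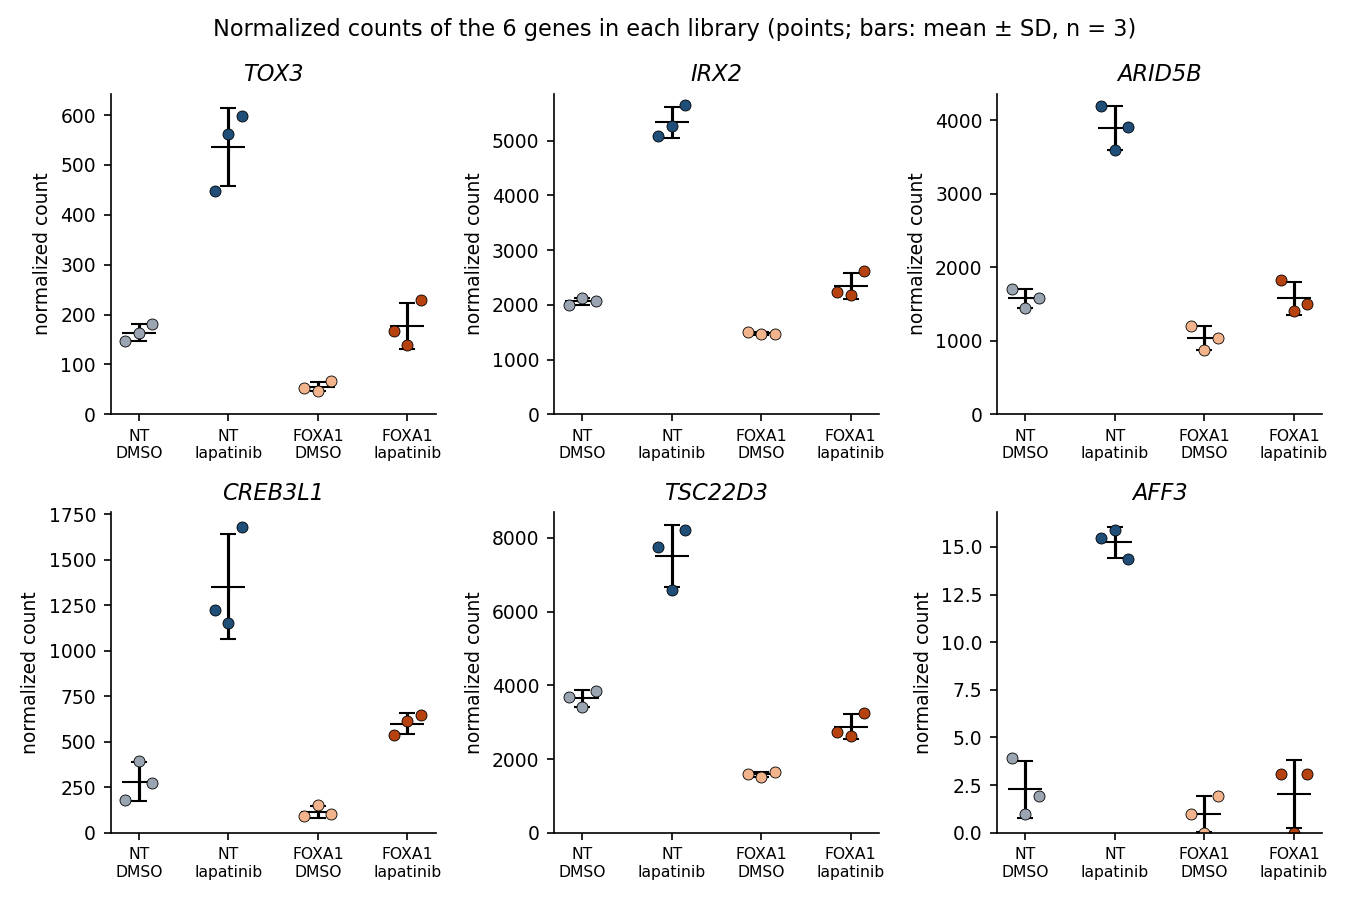
Normalized count (vertical axes, linear, each from 0) of the 6 genes in the 4 groups. Points are libraries and bars the mean ± SD of 3, and in all 6 panels NT siRNA with lapatinib is the high group, whereas the combined treatment lies above untreated control for CREB3L1 and below it for TSC22D3.

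Levels per transcript length kept a wide spread between the genes. In NT siRNA with lapatinib, TPM was 229 ± 23.9 for TSC22D3, 122 ± 6.33 for IRX2, 32.6 ± 2.43 for ARID5B, 31.9 ± 6.34 for CREB3L1, 10.6 ± 1.53 for TOX3 and 0.117 ± 0.00577 for AFF3 (SD, n = 3). ARID5B and CREB3L1 did not differ beyond their spread. In NT siRNA with DMSO the values were 113 ± 6.52 for TSC22D3, 46.5 ± 2.54 for IRX2, 13.4 ± 0.651 for ARID5B, 6.74 ± 2.71 for CREB3L1 and 3.29 ± 0.361 for TOX3, so CREB3L1 stood below ARID5B there. In FOXA1 siRNA with DMSO they were 50.3 ± 1.44, 34.5 ± 0.413, 8.99 ± 1.05, 2.88 ± 0.717 and 1.12 ± 0.196 TPM in that order. In FOXA1 siRNA with lapatinib they were 87.8 ± 9.85 for TSC22D3, 55.4 ± 5.33 for IRX2, 13.7 ± 2.20 for ARID5B, 14.2 ± 1.31 for CREB3L1 and 3.55 ± 0.880 for TOX3, and ARID5B and CREB3L1 again did not differ beyond their spread. AFF3 was at or below 0.03 TPM in each library of these 3 groups.

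Lapatinib still raised each of the 5 genes that could be tested after FOXA1 depletion. The choice of genes favoured low values in the combined treatment, which works against a rise. It also favoured low values in FOXA1 siRNA with DMSO, which works toward one, and the p-values do not account for either. TOX3 rose by 1.68 on the log2 scale (SE 0.22, adjusted p = 0.000317) and CREB3L1 by 2.38 (SE 0.17, adjusted p = 1.61e-05). Both passed the fold threshold, as did 4.93% of all genes in the upward direction, with 5.12% called down. TSC22D3 rose by 0.86 (SE 0.08, adjusted p = 5.82e-05), IRX2 by 0.67 (SE 0.07, adjusted p = 0.000118) and ARID5B by 0.61 (SE 0.13, adjusted p = 0.00428), all below the fold threshold. With no fold minimum, 29.0% of all genes rose in this comparison. These p-values are from the edgeR quasi-likelihood test with Benjamini-Hochberg adjustment over all genes, and measure the spread between replicates, whose origin in separate cultures is not stated.

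Where the combined treatment left each gene relative to untreated control differed between genes. Both groups compared here also entered the choice of genes, which the p-values do not account for. CREB3L1 ended higher, by 1.12 on the log2 scale (SE 0.24, adjusted p = 0.00337), and was the only one of the 5 past the fold threshold, with 9.96% of all genes called up. Without replicate 1 of NT siRNA with DMSO its value was 0.86, below that threshold. TSC22D3 ended lower, with a log2 difference of -0.31 (SE 0.08, adjusted p = 0.0101). IRX2 ended slightly higher, by 0.21 (SE 0.08, adjusted p = 0.0371), a call lost without replicate 1 or 3 of NT siRNA with DMSO or replicate 3 of FOXA1 siRNA with lapatinib (0.13 to 0.20). For TOX3 the difference was 0.14 (95% interval -0.29 to 0.58, adjusted p = 0.525) and for ARID5B 0.03 (-0.21 to 0.27, adjusted p = 0.838) by the same edgeR test, so neither could be told from control.

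The interaction of drug and siRNA was called for IRX2 and ARID5B and not for the other genes. An interaction of 0 means that the lapatinib fold was the same with either siRNA. For IRX2 it was -0.71 (SE 0.09, adjusted p = 0.00159, edgeR quasi-likelihood test with Benjamini-Hochberg adjustment), so the fold with FOXA1 siRNA was 0.612 of that with NT siRNA (95% interval 0.530 to 0.706). For ARID5B it was -0.70 (SE 0.17, adjusted p = 0.0266), a ratio of 0.614 (0.476 to 0.792). With replicates blocked by number, the adjusted p of the edgeR test was 5.11e-05 for ARID5B and 7.67e-05 for IRX2. In the fit without the block the ARID5B call was less firm. Leaving out 1 of 7 libraries there ended it, at adjusted p of 0.0563 to 0.0653 in edgeR. These were replicate 3 of NT siRNA with DMSO, 1 and 3 of NT siRNA with lapatinib, 1 and 3 of FOXA1 siRNA with DMSO, and 2 and 3 of FOXA1 siRNA with lapatinib. Over all genes, 3.20% had a negative and 3.99% a positive interaction at an adjusted p under 0.05 (449 and 559 genes, or 1292 and 1561 when replicates were blocked by number). The NT siRNA lapatinib libraries that chose the genes also enter the interaction, which favours a negative value.

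The other genes did not pass, and their intervals bound what could have been missed. TOX3 had an interaction of -0.04 (SE 0.28, adjusted p = 0.965), a ratio of folds of 0.973 (95% interval 0.636 to 1.49). CREB3L1 had 0.10 (SE 0.36, adjusted p = 0.918), a ratio of 1.07 (0.627 to 1.83). TSC22D3 had -0.19 (SE 0.13, adjusted p = 0.448), a ratio of 0.878 (0.722 to 1.07). When replicates were blocked by number, the interval of TSC22D3 narrowed to 0.794 to 0.970 (interaction -0.19, SE 0.07, adjusted p = 0.0657), leaving out equal folds, though the adjusted p still missed the threshold. The blocked intervals were 0.721 to 1.31 for TOX3 and 0.689 to 1.64 for CREB3L1. The lower bounds of TOX3 (0.636) and CREB3L1 (0.627) without the block lie just above the ratio of IRX2 (0.612), and the difference between genes was not tested. AFF3 gave -1.69 (SE 1.36, adjusted p = 0.526), an interval from -4.65 to 1.26 that says little. FOXA1 itself gave -0.04 (SE 0.17, adjusted p = 0.928). All are from the same edgeR test and adjustment.

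**Figure D2:**
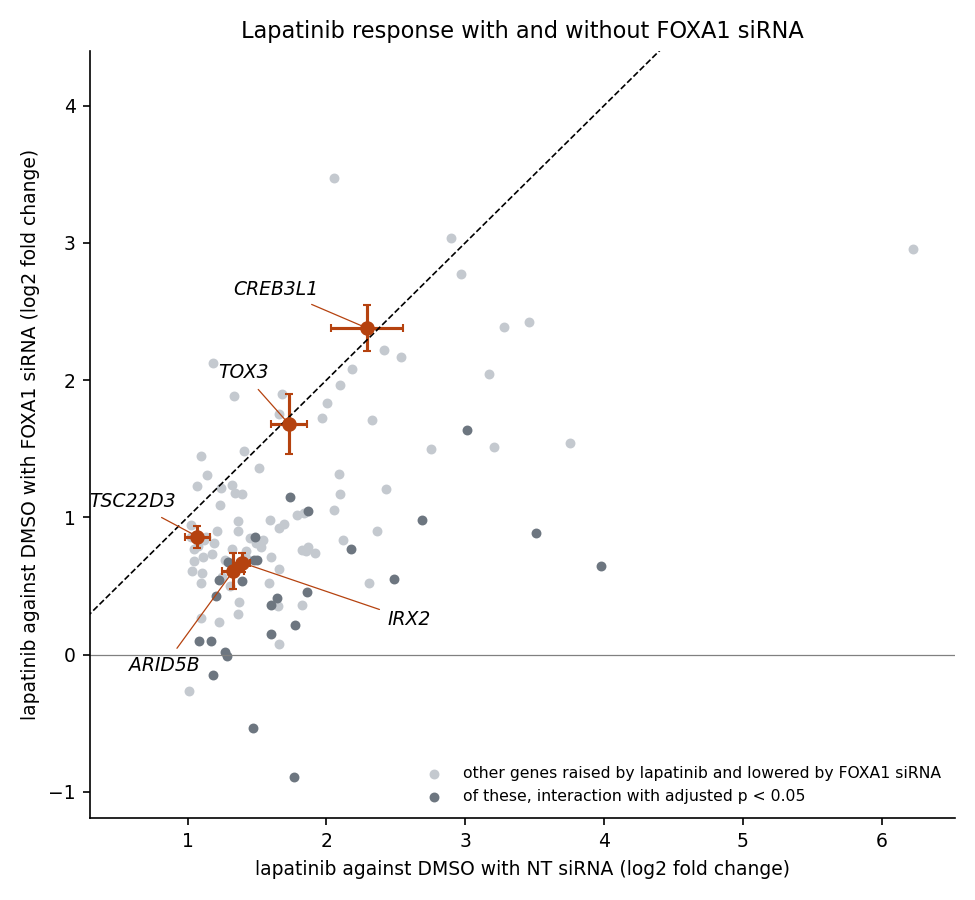
Lapatinib response (log2 fold change against DMSO) with FOXA1 siRNA against that with NT siRNA, for 5 of the genes (orange, bars ± SE) and other genes raised by lapatinib and lowered by FOXA1 siRNA in lapatinib (grey). CREB3L1 and TOX3 lie on the dashed line of equal response, TSC22D3 just below it, and IRX2 (1.39, 0.67) and ARID5B (1.33, 0.61) well below.

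Per replicate number, the observed count with both treatments was set against the count expected if the separate fold changes multiplied. It was 97.3% ± 10.8 of that expectation for TOX3, 108% ± 27.1 for CREB3L1 and 87.8% ± 5.93 for TSC22D3 (SD, n = 3). It was 61.1% ± 3.52 for IRX2 and 61.5% ± 3.15 for ARID5B. AFF3, with 0 to 3 counts a library after FOXA1 siRNA, gave 79.1% and 21.5% at replicate numbers 1 and 3 and no value at number 2, and is not read further. The 3 replicate numbers gave 58.1%, 60.2% and 65.0% for IRX2 and 62.1%, 64.3% and 58.1% for ARID5B. Among TOX3, CREB3L1 and TSC22D3 the lowest value was 81.3%, for TSC22D3. These percentages restate the interaction on the same libraries, which also chose the genes, and the difference between genes was not tested.

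On the scale of counts, each of the 5 genes stayed below the count that added changes would give. TOX3 rose by 372 ± 63.8 normalized counts after NT siRNA and by 122 ± 36.1 after FOXA1 siRNA, so 32.8% of the rise remained. For IRX2 the rise went from 3275 ± 271 to 864 ± 246 (26.4%), and for ARID5B from 2321 ± 169 to 537 ± 86.7 (23.1%). CREB3L1 kept 45.1%, from 1073 ± 325 to 484 ± 55.8, and TSC22D3 kept 33.2%, from 3872 ± 618 to 1287 ± 284 (SD, n = 3 throughout). The selection favours a smaller rise after FOXA1 siRNA on this scale, also for a gene whose folds multiply, so these shares are a description with no test. Counts with both treatments were 41.8% ± 9.34 (TOX3), 49.2% ± 2.31 (IRX2), 46.8% ± 2.73 (ARID5B), 52.4% ± 12.9 (CREB3L1) and 52.8% ± 3.97 (TSC22D3) of the count expected had the changes added (SD, n = 3).

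**Figure D3:**
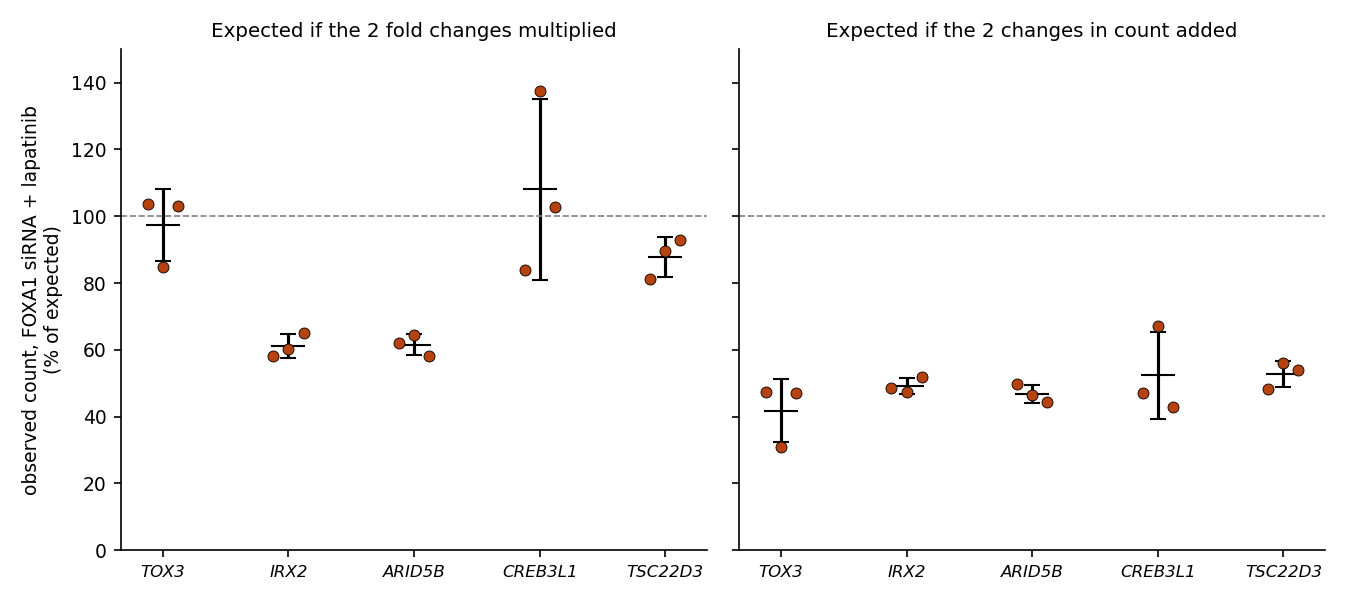
Observed normalized count with FOXA1 siRNA and lapatinib as a percentage of the count expected if fold changes multiplied (left) or if changes in count added (right). Points are replicate numbers and bars the mean ± SD of 3. On the left IRX2 and ARID5B lie near 61%, TSC22D3 at 87.8% and TOX3 and CREB3L1 at 97.3% and 108%, while on the right all 5 lie near 42% to 53%.

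The 6 genes belong to a larger group with the same selection. Of 13509 genes tested in both comparisons, 156 were called up by lapatinib with NT siRNA and down by FOXA1 siRNA in lapatinib, 2 comparisons that share the NT siRNA lapatinib libraries. Of these, 50 were also called down by FOXA1 siRNA in DMSO, and 31 had a negative interaction at an adjusted p under 0.05. Their median interaction was -0.78, against which IRX2 and ARID5B ranked 87 and 88 of 156 from the most negative. The median and the ranks include genes with too few counts to test with FOXA1 siRNA, AFF3 among them at rank 23. Those genes passed the count filter only through NT siRNA libraries, so the ranks are a description. TSC22D3 ranked 125, TOX3 139 and CREB3L1 142, toward the end of the group with an interaction of 0 or above. Of the 117 that could be tested with FOXA1 siRNA, 106 had a smaller lapatinib fold than with NT siRNA, a direction that the selection favours.

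Paralogs showed whether a family shared the pattern of its member. Of 19 paralogs listed, 13 had enough counts to be tested, with a median lapatinib response of 0.51 with NT siRNA against 0.03 over all genes. A negative interaction was called for 4 of the 13, against 3.20% of all genes. Of these, 3 were Iroquois genes, which sit in a separate cluster from IRX2. IRX3 was at 2220, 2310 and 2405 normalized counts in NT siRNA with DMSO and 4183, 4130 and 4414 with lapatinib, whereas with FOXA1 siRNA it was 1795, 2072 and 1807 in DMSO and 1813, 1992 and 2031 in lapatinib. The drug response of IRX3 was thus 0.90 after NT siRNA and 0.05 after FOXA1 siRNA (interaction -0.84, SE 0.09, adjusted p = 0.000598, edgeR quasi-likelihood test with Benjamini-Hochberg adjustment).

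IRX5 averaged 984 and 1158 normalized counts in DMSO and lapatinib after NT siRNA and 826 and 601 after FOXA1 siRNA, an interaction of -0.69 (SE 0.14, edgeR adjusted p = 0.0105). IRX6 was low, at 24.8 and 45.4 with NT siRNA in DMSO and lapatinib and at 47.2 and 16.7 with FOXA1 siRNA, and its interaction was -2.37 (SE 0.37, edgeR adjusted p = 0.00335). All 4 Iroquois genes with enough counts, IRX2 included, therefore had a negative interaction. IRX1 and IRX4 were too low to test.

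In the other families some paralogs had an interaction unlike that of the member, as TSC22D1 did. Others, such as CREB3L4, had no called interaction, as for the member. TSC22D1 rose in lapatinib with NT siRNA from 4046 ± 119 to 8217 ± 695, the one paralog called up there. With FOXA1 siRNA it was 6137 ± 418 in DMSO and 7695 ± 993 in lapatinib. FOXA1 siRNA thus raised TSC22D1 in DMSO, by 0.61 (SE 0.05, edgeR adjusted p = 0.000107). Its interaction was -0.70 (SE 0.13, edgeR adjusted p = 0.00729), with the higher DMSO level entering it. FOXA1 siRNA thus lowered TSC22D3 in lapatinib by 1.39 on the log2 scale, where the value for TSC22D1 was -0.10 (SE 0.10, edgeR adjusted p = 0.436). AFF1, a subunit scaffold of elongation complexes, fell by 1.16 in DMSO and 1.04 in lapatinib, and lapatinib changed it by 0.32 and 0.45 (interaction 0.14, SE 0.07, edgeR adjusted p = 0.292). For CREB3L4 and CREB3L2 the drug response was 0.90 and 0.65 with NT siRNA and 0.81 and 0.45 with FOXA1 siRNA, with interactions of -0.07 and -0.18 (edgeR adjusted p = 0.856 and 0.236).

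**Figure D4:**
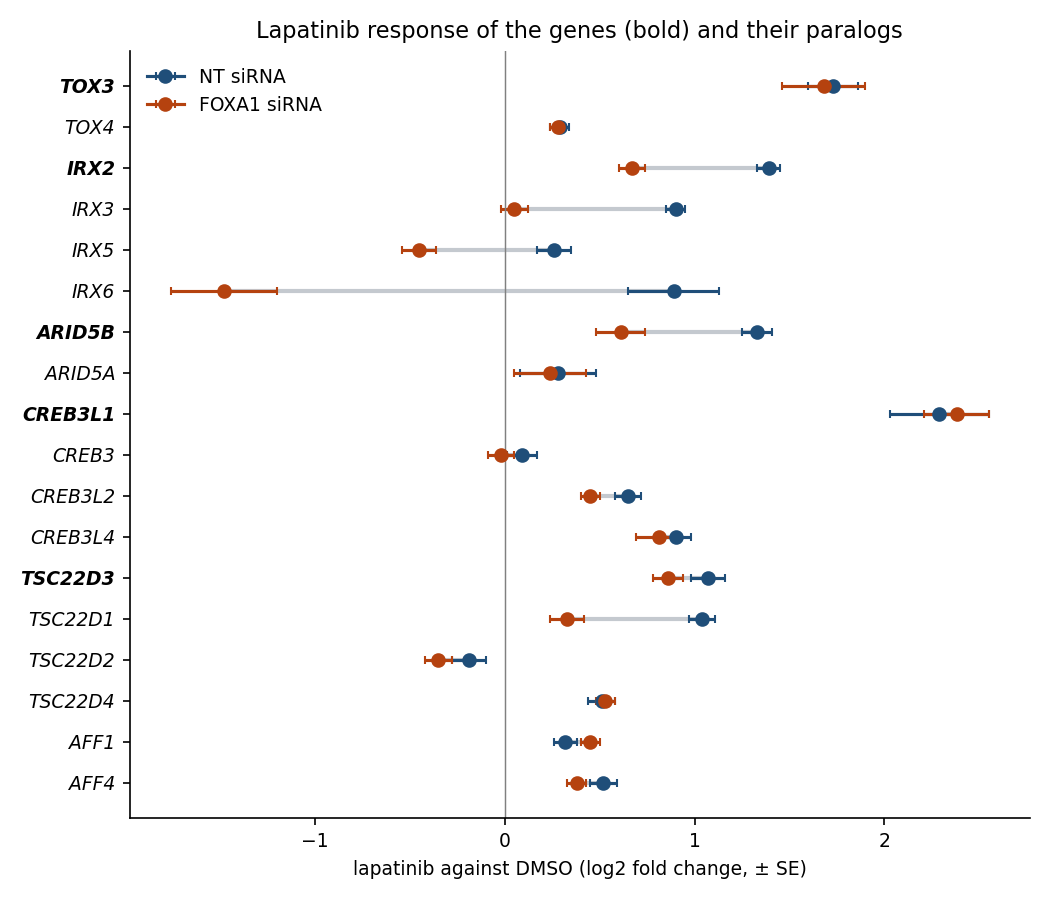
Lapatinib response (log2 fold change ± SE against DMSO) with NT siRNA (blue) and FOXA1 siRNA (orange) for 5 of the genes (bold) and their 13 tested paralogs. The gap between the points is wide for IRX2, IRX3, IRX5, IRX6, ARID5B and TSC22D1, and the points overlap within their errors for TOX3 and CREB3L1.

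Among 14 luminal transcription factors, listed from general knowledge, 6 were called up by lapatinib with NT siRNA, against 6.64% of all genes. The 6 include ESR1, which was low at 14.7 and 34.1 normalized counts with NT siRNA in DMSO and lapatinib. The list median was 0.85 against 0.03 over all genes. Among those past the threshold for FOXA1 siRNA in lapatinib were XBP1, a secretory bZIP factor (-1.53), EHF, an ETS factor (-1.15), and TFAP2B (1.31). XBP1 had an interaction near that of TSC22D3, with 27296 and 68020 normalized counts for NT siRNA in DMSO and lapatinib and 10519 and 23680 for FOXA1 siRNA (interaction -0.15, SE 0.15, edgeR adjusted p = 0.628). EHF had a negative interaction of -0.62 (SE 0.14, edgeR adjusted p = 0.0215). GATA3, a luminal zinc finger factor, rose from 2818 ± 20.7 to 5047 ± 633 with NT siRNA and was at 2796 ± 110 and 2899 ± 242 with FOXA1 siRNA (interaction -0.79, SE 0.12, edgeR adjusted p = 0.00269). KLF5 had a negative interaction (-0.53, edgeR adjusted p = 0.0153) of another shape. It was at 1046 and 3090 normalized counts with NT siRNA in DMSO and lapatinib and at 1566 and 3201 with FOXA1 siRNA. FOXA1 siRNA changed KLF5 by 0.59 in DMSO and by 0.04 in lapatinib (edgeR adjusted p = 0.000805 and 0.633). RUNX1 had a positive interaction (0.48, edgeR adjusted p = 0.0068).

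TSC22D3 is a classical glucocorticoid and FOXO target, and 14 of 15 such genes could be tested. With NT siRNA, lapatinib raised 5 and lowered 2 past the threshold, where 6.64% of all genes were called up and 7.13% down. Values ran from 3.90 for IRS2, an insulin receptor adaptor, to -1.68 for FKBP5 and -1.06 for SGK1, which are glucocorticoid-induced genes. FOXA1 siRNA in lapatinib called 1 of the 14, ERRFI1, upward (1.03), where 4.51% of all genes were called up. The list median was -0.20 against -0.01 over all genes. CCNG2, a cyclin induced by FOXO factors, moved in the directions of TSC22D3, at 1339 and 4549 normalized counts after NT siRNA in DMSO and lapatinib and 703 and 2372 after FOXA1 siRNA. Its FOXA1 siRNA effect was -0.92 in DMSO and -0.95 in lapatinib (SE 0.10 and 0.04), with an interaction of -0.01 (SE 0.11, edgeR adjusted p = 0.981). TXNIP, a thioredoxin-binding FOXO target, was the one with a called interaction (-0.73, edgeR adjusted p = 0.00326), at 2047 and 12260 normalized counts with NT siRNA and 3055 and 11032 with FOXA1 siRNA.

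Of 11 genes for binding partners and processing enzymes of the 6, ELL2, an elongation factor that works with AFF proteins, changed against the direction of AFF1. It was 786 ± 34.3 and 639 ± 11.01 normalized counts with NT siRNA in DMSO and lapatinib, and 1729 ± 86.4 and 2075 ± 93.6 with FOXA1 siRNA (interaction 0.56, SE 0.08, edgeR adjusted p = 0.0024). MBTPS1, which cleaves CREB3L1, had an interaction of -0.29 (SE 0.05, edgeR adjusted p = 0.0086), whereas PHF2, the partner of ARID5B, changed by 0.26 in lapatinib with NT siRNA and 0.13 with FOXA1 siRNA. The 10 genes of COPII vesicle export, some of which CREB3L1 can activate, had lapatinib responses from -0.42 (SEC13) to 0.40 (SEC31A) with NT siRNA, with interactions of -0.18 (SEC23A) to 0.05 (SEC24B) and edgeR adjusted p of 0.183 to 0.899. SAR1B was raised by FOXA1 siRNA in DMSO by 1.02.

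The divergent transcript IRX2-DT, listed as C5orf38, starts 0.216 kb from IRX2 on the opposite strand. Its normalized counts were 355, 352 and 369 in NT siRNA with DMSO and 762, 762 and 766 in NT siRNA with lapatinib. After FOXA1 depletion IRX2-DT stood at 399, 353 and 370 in DMSO and 553, 561 and 624 in lapatinib. IRX2-DT thus shared the rise of IRX2, but its DMSO groups overlapped (0.07, SE 0.08, edgeR adjusted p = 0.495). FOXA1 siRNA in lapatinib changed it by -0.41 (SE 0.07), where the value for IRX2 was -1.19. With both treatments IRX2-DT was above untreated control by 0.72 (SE 0.08), where the value for IRX2 was 0.21. The interaction of IRX2-DT was -0.46 (SE 0.10, edgeR adjusted p = 0.0185). The sources used here do not say whether reads were assigned by strand, so those at the shared start of the pair are uncertain.

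Near CREB3L1, PHF21A (156 kb between starts) was raised by lapatinib with either siRNA (0.57 and 0.49) and lowered by FOXA1 siRNA in either medium (-0.59 and -0.68), with an interaction of -0.06 (SE 0.09, edgeR adjusted p = 0.748). DGKZ and MDK, 55.3 and 103 kb away, changed by 0.09 and -0.16 in lapatinib with NT siRNA. Near TSC22D3, PRPS1 (147 kb) and MID2 (49.7 kb) changed by 0.03 and 0.27 there, and FOXA1 siRNA lowered PRPS1 by 1.08 in lapatinib.

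The mean transcript length deposited for each gene, which weights its annotated transcripts by their estimated shares, is given for IRX2 in each library. It was 2786, 2800 and 2771 bases in NT siRNA with DMSO, 2758, 2685 and 2714 in NT siRNA with lapatinib, 2728, 2730 and 2706 in FOXA1 siRNA with DMSO, and 2647, 2618 and 2636 in FOXA1 siRNA with lapatinib. Drug and siRNA each went with a shorter mean and no overlap of the groups compared (-67 and -88 bases for lapatinib with NT and FOXA1 siRNA, -64 and -85 bases for FOXA1 siRNA in DMSO and lapatinib). The exact permutation test gave its smallest possible p of 0.1 in each. Among all tested genes whose length varied, such separation was common, at 18.1% and 17.4% for lapatinib with NT and FOXA1 siRNA and 14.4% and 13.2% for FOXA1 siRNA in DMSO and lapatinib. The annotation used by the authors holds 2 transcripts of IRX2. The mean length of ARID5B changed by -221 bases with FOXA1 siRNA in lapatinib, and with FOXA1 siRNA lapatinib lengthened CREB3L1 by 77 bases and TSC22D3 by 33, each without overlap and with the same exact p of 0.1.

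The genes whose profile over the 12 libraries was most like each member were found among 10812 genes by Pearson r of log2 normalized counts, as a description. A choice by likeness over these libraries favours an interaction of the same direction as the member's, so interactions given here are a description with no test. For IRX2 these were PLA2G15 (r = 0.995), ZKSCAN1 (0.994) and CSNK1A1 (0.993), with interactions of -0.45, -0.53 and -0.28. For ARID5B they were FBXL17 (0.990), GRLF1 (0.985) and CREBL2 (0.984), with interactions of -0.37, -0.31 and -0.20. TSC22D3 was most like BAMBI (0.995), a decoy receptor of TGF-beta signaling, followed by UST (0.994) and C6orf106 (0.993). BAMBI was at 1198 and 2403 normalized counts in DMSO and lapatinib with NT siRNA and 483 and 923 with FOXA1 siRNA. The interaction of BAMBI was -0.07 (SE 0.18).

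TOX3 was most like TP53INP2 (0.990), an autophagy regulator, at 15873, 34740, 6583 and 18124 normalized counts in the same order of groups, with TRIM3 (0.989) and SUV420H1 (0.988) next. CREB3L1 was most like TRAK1 (0.989), SH3YL1 (0.985) and VPS39 (0.984), whose interactions lay between -0.09 and -0.06. For AFF3, whose profile rests on few counts, they were DAAM1 (0.958), PBRM1 (0.941) and CDK17 (0.937). Between the 6 genes r ran from 0.668 (CREB3L1 and AFF3) to 0.971 (TOX3 and TSC22D3), over libraries that share their groups and, in part, their replicate numbers.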

How the data were processed

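Polyadenylated RNA of 12 SKBR-3 libraries was analyzed, with groups and replicate numbers taken from the labels. By the methods, the authors aligned reads to hg38 with STAR and quantified them with Salmon, and the submitters' notes name RSEM, whose columns the files have. The deposited expected counts are estimated reads per gene, of which 87.5% to 88.1% were exactly whole, and were rounded here. TPM values deposited by the authors were used for levels and as an alternative. The deposited FPKM values and the authors' upper-quartile normalized signal were not used in tests, and the authors' length column was read as a mean in bases.

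Genes were tested with edgeR 4.0.16 in R 4.3.3 (quasi-likelihood test, TMM normalization, Benjamini-Hochberg adjustment over all genes). Each comparison was fitted on its own 6 samples and the interaction on all 12, with genes of at least 10 counts in at least 1 sample. Calls needed an adjusted p under 0.05, with a log2 fold change of 1 or more in either direction, and had no minimum for the interaction. Likeness used log2(normalized count + 1) and a mean of at least 100. Count ratios have exact binomial 95% intervals, which cover counting error only, and log2 fold changes 95% intervals from the residual spread. The steps were tested on simulated data. Tables were made with pandas 2.3.3, scipy 1.17.1 and numpy 2.4.6 under Python 3.11.15, and plots with matplotlib 3.10.9.

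The genes and lists were chosen with earlier results of these data known. Named genes are the 6 and FOXA1, the extremes and calls of each list, the 3 most alike genes of each, and genes starting within 200 kb. CREB3L4, CREB3L2, PHF2 and CCNG2 fall outside this rule and were named after their values were seen. Some results that the rule covers are not reported here. Alternatives were RLE and upper-quartile scaling, DESeq2 1.42.0, other filters, 1 model for all samples, TPM, the replicate block and leaving out each library.

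Deviations from the group means correlated between libraries of the same number (18 pairs over 10812 genes, r from 0.267 to 0.696, mean 0.427), so the replicate numbers pair the samples. The labels do not say what a number stands for. No replicates were alike enough to be 1 library deposited more than once (chi-square per degree of freedom 3.62 to 17.6).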

Additional observations from a re-analysis of the deposited data

Results flagged for a closer look

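The lapatinib response of 2 of the 6 genes differed between FOXA1 siRNA and NT siRNA by the test of the interaction itself (edgeR quasi-likelihood test with Benjamini-Hochberg adjustment over all genes). For IRX2 the response was lower with FOXA1 siRNA, with a log2 difference of -0.71 (SE 0.09, adjusted p = 0.00159), and the observed count was 58.1%, 60.2% and 65.0% of the multiplied expectation at the 3 replicate numbers. For ARID5B the difference was -0.70 (SE 0.17, adjusted p = 0.0266), with 62.1%, 64.3% and 58.1% of that expectation. The genes were selected on libraries that enter this term, which favours a negative value.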

How the results depend on the processing

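Of 756 recomputed values for 58 results, 369 under other settings and 361 without a library were counted as unchanged. For a tested gene this meant the same side of an adjusted p of 0.05, whatever the size of the fold. For a share of a rise it meant a shift below 1 SD. Values that were not called could change sign, as the CREB3L1 interaction did without replicate 2 of NT siRNA with DMSO (-0.22 against 0.10). With the replicate block, 1561 genes had a positive and 1292 a negative interaction, against 559 and 449 without it, and adjusted p was 7.67e-05 for IRX2 and 5.11e-05 for ARID5B. The block changed no other call. Leaving out 1 library gave 300 to 782 positive and 242 to 583 negative interactions. Both counts were over 1.5 times lower without replicate 1 or 3 of NT siRNA with DMSO or FOXA1 siRNA with DMSO, 3 of NT siRNA with lapatinib or 1 of FOXA1 siRNA with lapatinib (the negative count also without 1 of NT siRNA with lapatinib). For ARID5B leaving out a library, in fits without the block, gave an interaction of -0.83 to -0.59, with adjusted p of 0.0131 to 0.0653. The difference of IRX2 between combined treatment and control was 0.19 with no filter on low counts (adjusted p = 0.0541), and the cause was not tested. AFF3, at 0 to 16 counts a library, passed the count filter only where NT siRNA with lapatinib entered.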
